A study of Mus musculus with 2 samples.

Results

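The genes described here carry proteins into the endoplasmic reticulum (ER) and out of it: 58 of the 32285 annotated genes of 2 single-cell libraries of mouse gum immune cells. They were taken by symbol, with no measured value in the rule. The 22 ER translocation members were 5 of the signal recognition particle, 2 of its receptor, 6 of the translocation channel, 4 of the TRAP complex and 5 of the signal peptidase. The 36 vesicle members were 11 of the COPII coat, 8 of the COPI coat, 6 ARF GTPases and 11 p24 cargo receptors.

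The tissue was the gingiva of C57BL/6 mice, 1 library being labelled Otud1-/- and 1 WT, in a study of experimental periodontitis. OTUD1 is a deubiquitinase, an enzyme that takes ubiquitin off other proteins, and the study's title concerns neutrophil protein transport. The number of animals pooled, their age and sex, any treatment of each group and the deleted part of Otud1 are not stated by the sources at hand. With 1 library per genotype no difference has a replicate, so no test was run, and every interval below is a 95% interval for counting error only.

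The libraries labelled Otud1-/- and WT held 44083735 and 44878537 unique molecular identifiers (UMIs, each standing for 1 captured transcript), and 6486 and 11414 cells were kept, with medians of 4168.5 and 2303.5 UMIs. They shared 37 cell barcodes. Otud1 itself was not lower in the library labelled Otud1-/-, with 1456 UMIs (33.0 CPM, counts scaled to a common total) against 834 UMIs (18.6 CPM) in WT. This 3′ tag checks nothing if it lies outside the deleted part, so the library is named only by its label. Xist, made from the inactive X of female cells, was found in 3 kept cells of the library labelled Otud1-/- and in 3916 of WT, and Y-linked transcripts in 4086 and 3529 cells, so that sex and genotype differed together. Cells were grouped by marker genes into 12 classes, whose names mean a likeness to that cell type. The 8 classes with at least 50 cells in both libraries were compared: neutrophils (878 and 907 cells, Otud1-/- before WT), B cells (2961 and 2226), plasma cells (80 and 264), T cells (895 and 1880), natural killer (NK) cells (191 and 403), dendritic cells (304 and 828), plasmacytoid dendritic cells (81 and 621) and monocytes/macrophages (638 and 2464). All 8 plasma cell markers had UMIs in both libraries, and 7 of them were higher in plasma cells than in all other cells of the library labelled Otud1-/-, against 8 in WT.

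A protein bound for secretion is caught by the signal recognition particle as it leaves the ribosome and is brought through its receptor to the Sec61 channel, where the TRAP complex assists and the signal peptidase removes the signal peptide. COPII coats then carry it from the ER towards the Golgi, COPI coats, recruited by ARF GTPases, carry material back, and p24 proteins select cargo for both. Plasma cells, the antibody factories of inflamed gum, are known for an expanded ER that forms under the transcription factor XBP1.

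The promoter sequences come first, since XBP1 and other factors of the unfolded protein response act on known motifs. RefSeq start sites of GRCm38.p6, the patched form of the files' mm10 build, gave windows of 250 bases before to 50 after the start for 48 of the 58 members, 54 windows in all. The XBP1 element TGACGTGG, searched on both strands, was found in 6 windows of 5 members, or 11.1%, against 0.676% of all 32851 promoters and 1.27% of the 2129 promoters of genes compared between plasma and B cells in WT. All 5 were vesicle genes, and 0 of 16 ER translocation promoters held it. The 5 sites are shown in 30 bases each, read along the gene's own strand, with the element or its reverse complement in capitals. Sec24d, a COPII cargo-binding subunit, has it at chr3:123267459-123267488 on the plus strand, within the annotated gene, which starts at 123267455. Copb1 and Copb2, subunits of the COPI coat, have it at chr7:114254690-114254719 on the minus strand and chr9:98563713-98563742 on the plus strand. Both stretches cross the annotated start, and the element itself lies within the annotated gene. Sec23a, of the inner COPII coat, has it at chr12:59011993-59012022 on the minus strand, a stretch across the start with the element within the annotated gene. Arf1, a GTPase that recruits the COPI coat, has it at chr11:59228228-59228257 on the minus strand, inside the annotated gene, the element's first base being 84 bases before one RefSeq start and 21 after the other.
Sec24d: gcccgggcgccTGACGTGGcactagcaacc
Copb1: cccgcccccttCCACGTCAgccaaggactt
Copb2: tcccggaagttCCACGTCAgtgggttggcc
Sec23a: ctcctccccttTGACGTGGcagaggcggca
Arf1: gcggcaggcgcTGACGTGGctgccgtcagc
The shorter core ACGTG, whose letters lie within that element, was in 59.3% of the member windows, against 19.6% of all promoters and 28.1% of promoters of the compared genes. CCACG, which overlaps with both, was in 74.1%, against 32.8% and 48.8%. The longer ER stress element, CCAAT and CCACG at their fixed spacing, was in 0 of 54 windows, against 0.119% of all promoters. A match is a run of letters and no evidence of binding.

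Among members found below to be higher in plasma than in B cells, Spcs1, Ssr3 and Tmed10 had CCACG and ACGTG before the start. Spcs2 had CCACG there, Cope had none of the motifs there, and Sec11c had no window. The 3 members that the results below turn on most, Ssr4, Sec61b and Sec61g, had none of these motifs in the 250 bases before the start. Their promoters are shown for that reason, in the stretches that lie outside annotated exons: 125 bases of Ssr4 at chrX:73786898-73787022 on the plus strand, 247 bases of Sec61b at chr4:47474411-47474657 on the plus strand, and 250 bases of Sec61g at chr11:16508485-16508734 on the minus strand.
Ssr4: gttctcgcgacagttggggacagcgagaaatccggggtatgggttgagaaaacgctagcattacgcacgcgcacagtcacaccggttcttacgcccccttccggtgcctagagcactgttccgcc
Sec61b: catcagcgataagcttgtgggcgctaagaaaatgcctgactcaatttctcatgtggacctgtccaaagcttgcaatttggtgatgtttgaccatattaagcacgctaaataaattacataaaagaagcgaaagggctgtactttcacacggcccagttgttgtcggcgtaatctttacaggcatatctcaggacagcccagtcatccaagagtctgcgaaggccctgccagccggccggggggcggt
Sec61g: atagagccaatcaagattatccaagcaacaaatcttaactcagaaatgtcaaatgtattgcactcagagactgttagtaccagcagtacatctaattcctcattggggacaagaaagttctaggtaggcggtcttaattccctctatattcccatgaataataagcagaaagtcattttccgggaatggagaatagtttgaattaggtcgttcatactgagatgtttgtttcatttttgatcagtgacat

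ER translocation genes took the largest part of the transcriptome in plasma cells and the smallest in neutrophils, in both libraries. The 22 members together made up 0.885% (0.867 to 0.904) of plasma cell UMIs in the library labelled Otud1-/- and 1.07% (1.05 to 1.08) in WT. Plasmacytoid dendritic cells, which release interferon, came next with 0.587% and 0.561%. NK cells, dendritic cells, T cells and monocytes/macrophages lay between 0.296% and 0.351% in the library labelled Otud1-/- and between 0.299% and 0.329% in WT. B cells, the lineage from which plasma cells arise, had 0.258% and 0.249%. Neutrophils had 0.131% (0.127 to 0.135) and 0.200% (0.193 to 0.206). The gap to B cells also held cell by cell: the median plasma cell had 0.764% (quartiles 0.547 and 0.938) in the library labelled Otud1-/- and 0.978% (0.699 and 1.345) in WT, against 0.248% and 0.238% for the median B cell.

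Compared with ER translocation genes, the vesicle genes varied less in their share of all UMIs over the 8 classes. Their 36 members took between 0.217% of UMIs, in neutrophils, and 0.339%, in plasmacytoid dendritic cells, in the library labelled Otud1-/-, and between 0.218% and 0.325% in the same classes in WT. Plasma cells stood within this range, at 0.236% and 0.279%. The total in plasma cells is itself shaped by antibody transcripts: immunoglobulin UMIs were 53.8% of plasma cell UMIs in the library labelled Otud1-/- and 35.98% in WT, and with these left out of the total the ER translocation share of plasma cells was 1.92% and 1.67%. Their vesicle share was then 0.511% and 0.436%, the highest of the 8 classes, before plasmacytoid dendritic cells at 0.356% and 0.328%, so the place of plasma cells among the classes for vesicle genes depends on whether antibody transcripts are counted. Plasmacytoid dendritic cells carried summed plasma cell markers at 5749 CPM in the library labelled Otud1-/- and 1350 CPM in WT, against 36768 and 27569 CPM in plasma cells, and the part of this in their shares was not tested.

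**Figure D1:**
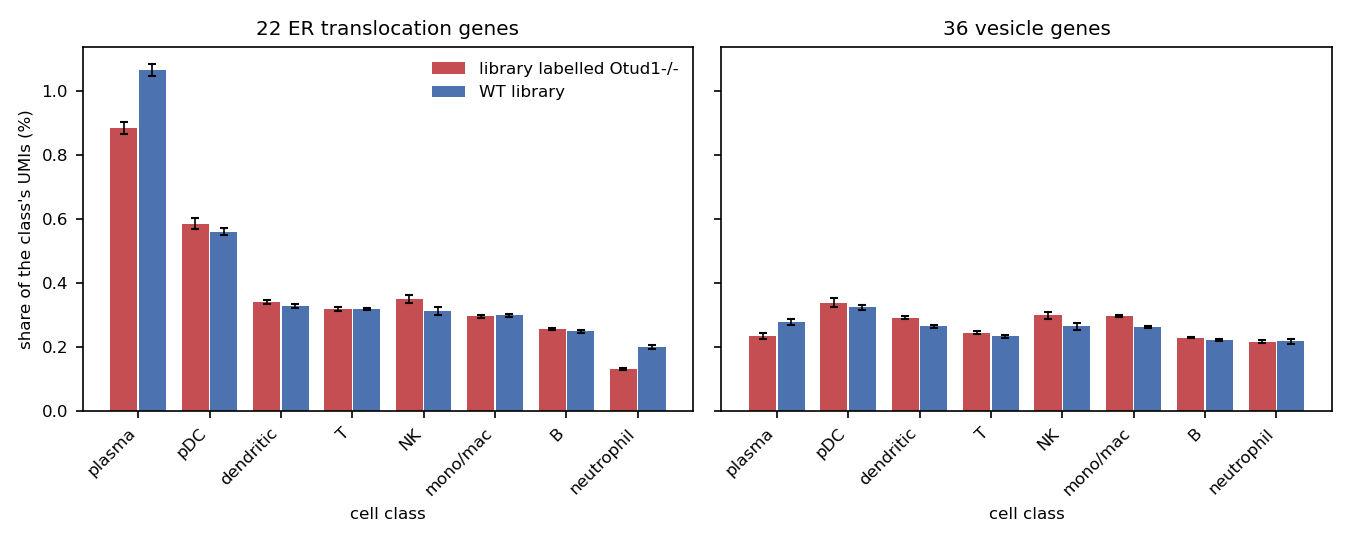
Percent of UMIs from the 22 ER translocation members and the 36 vesicle members in each of the 8 classes, for the library labelled Otud1-/- and for WT. Error lines on the bars are exact 95% intervals of counting error. Plasma cells lead for ER translocation at 0.885% and 1.07%, neutrophils are lowest at 0.131% and 0.200%, and the vesicle shares all lie between 0.217% and 0.339%.

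Gene by gene, classes were ranked for the 34 members that reached a mean of 50 CPM over the 8 classes in both libraries. Plasma cells had the highest level of the 8 classes in both libraries for 12 of them, 10 of 19 ER translocation and 2 of 15 vesicle members, against 2.95% of the 2443 genes ranked the same way. The 12 were Ssr2, Ssr3 and Ssr4 of the TRAP complex, Sec11c, Spcs1, Spcs2 and Spcs3 of the signal peptidase, Srp9 and Srp19 of the signal recognition particle, Srpr of its receptor, and the vesicle genes Tmed10 and Sar1b. Plasmacytoid dendritic cells were highest in both libraries for 7 members, against 10.1% of genes: Srp14, Sec63, Ssr1, Copa, Tmed2, Tmed7 and Tmed9. NK cells were highest for Arf4, at 471.6 and 363.2 CPM, and for Sar1a, the GTPase that starts COPII assembly, at 145.8 and 140.4 CPM. Neutrophils were lowest in both libraries for 21 of the 34 members, 15 of 19 and 6 of 15, against 21.9% of genes. Plasma cells were lowest for 4 vesicle members, Arf1, Arf5, Arf6 and Tmed5, against 40.7% of genes.

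Plasma cells were next compared with B cells within each library, as log2 ratios of CPM with 0.5 CPM added to both sides. Genes entered if the mean of both classes was at least 50 CPM and the higher class had at least 100 UMIs, so a gene low in B cells could enter only through plasma cells. In the library labelled Otud1-/-, 16 ER translocation members were compared and 8 were at least 2-fold higher in plasma cells, against 6.42% of 1901 genes. In WT it was 14 of 19, against 9.31% of 2116 genes. At least 2-fold lower were 0 ER translocation members in either library, against 60.7% and 41.6% of genes. Their median log2 ratio was 1.19 in the library labelled Otud1-/- and 1.40 in WT, while the median of all compared genes was -1.28 and -0.82. Of the vesicle members, 13 were compared in each library. By the same line 2 and 4 of these were higher and 2 and 1 lower, with medians of -0.13 and 0.43. TMM scaling, which moves every ratio up by 0.98 in the library labelled Otud1-/- and 0.65 in WT, takes the vesicle medians to 0.85 and 1.08, so their sign is not fixed. The 28 members compared in both libraries included 10 that were higher in both, 8 of 16 ER translocation and 2 of 12 vesicle members, and 1 that was lower in both. A further 25 members, 22 of them vesicle genes, did not meet both conditions in either. Of these, Sec13, Sec24a and Sec31a reached the level of 50 CPM in WT and failed only the minimum of UMIs. They had 87, 78 and 79 UMIs in plasma cells, the smaller class, with log2 ratios of 0.96, 0.51 and 0.33.

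Among ER translocation roles, the medians were highest for the signal peptidase (2.23 in the library labelled Otud1-/- and 2.60 in WT) and the TRAP complex (1.82 and 2.38). The channel followed (0.93 and 1.39), then the receptor, through Srpr alone (0.58 and 1.03), and the signal recognition particle (0.25 and 0.95). The members were not the same in both libraries, for Ssr1 of the TRAP complex and Sec61a1 and Sec63 of the channel were compared in WT only. Ssr4, the TRAP delta subunit, had 2784 CPM in plasma cells and 209.6 CPM in B cells of the library labelled Otud1-/-, a log2 ratio of 3.73 (3.65 to 3.81). In WT the 2 classes had 2145 and 168.7 CPM, a ratio of 3.66 (3.57 to 3.77). The values were spread over cells, for Ssr4 was found in 68 of 80 and 230 of 264 plasma cells, and the highest cell held 4.26% and 3.63% of its plasma cell UMIs. Ssr2, the TRAP beta subunit, followed with log2 ratios of 1.82 (1.61 to 2.03) in the library labelled Otud1-/- and 2.77 (2.58 to 2.97) in WT, and Ssr3, the gamma subunit, with 1.46 and 1.997.

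Signal peptidase genes were compared in full. Of the 5, 4 were at least 2-fold higher in plasma cells in each library. Sec11c, a catalytic subunit, had 1437 CPM in plasma cells and 204.5 CPM in B cells of the library labelled Otud1-/- (log2 ratio 2.81), and 1578 and 178.0 CPM in WT (3.14). Its paralog Sec11a, the alternative catalytic subunit, did not follow, with log2 ratios of -0.55 in the library labelled Otud1-/- and 0.43 in WT. Accordingly Sec11c made up 95.01% (93.8 to 96.1) and 93.3% (92.2 to 94.3) of the UMIs of the pair in plasma cells, against 64.9% and 68.0% in B cells. In plasmacytoid dendritic cells that share was 83.7% and 81.5%, in neutrophils, where these genes were low, 87.8% and 76.4%, and in T cells 51.2% and 58.5%. The accessory subunits Spcs1, Spcs2 and Spcs3 had log2 ratios of 2.23, 1.92 and 2.32 in the library labelled Otud1-/- and of 2.83, 2.36 and 2.60 in WT.

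Members of the channel differed among themselves. Sec61b, its beta subunit, ranked with the signal peptidase genes and had 1000.5 CPM in plasma cells and 265.3 CPM in B cells of the library labelled Otud1-/- (log2 ratio 1.91), and 1525 and 227.7 CPM in WT (2.74). Sec61g, the gamma subunit, had 561.1 and 295.2 CPM in the library labelled Otud1-/-, a ratio of 0.93 (0.79 to 1.06), under the 2-fold line, and 1230 and 390.7 CPM in WT, a ratio of 1.65 (1.56 to 1.75), above it. Srp9, which binds the RNA of the particle, had ratios of 0.87 and 1.40, and Srp19, which helps assemble it, 0.67 and 1.40. Sec61a2, the minor paralog of the pore-forming subunit Sec61a1, held 2.2% and 4.6% of the pair's UMIs in plasma cells and 17.2% and 16.4% in B cells, from 2 and 8 UMIs in plasma cells.

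Among vesicle genes the pattern on the CPM scale was of single members, while more of them passed the 2-fold line under TMM and median of ratios. Cope, the epsilon subunit of COPI, had 201.1 CPM in plasma cells and 64.7 CPM in B cells of the library labelled Otud1-/- (log2 ratio 1.63), and 213.3 and 54.0 CPM in WT (1.97). Tmed10, a p24 receptor of carriers between ER and Golgi, had ratios of 1.16 and 1.30. Tmed5, another p24 protein, was the member lower in both libraries, with 105.6 CPM in plasma cells and 241.5 CPM in B cells of the library labelled Otud1-/- (-1.19, -1.49 to -0.91), and 94.7 and 227.3 CPM in WT (-1.26, -1.54 to -0.997). The lowest after it in WT were Arf6, which acts at the cell surface (-0.94 in the library labelled Otud1-/- and -0.61 in WT), Copb1 (-0.64 and -0.49), Copa, the alpha subunit of COPI (-0.13 and -0.38), Arf5 (-1.04 and -0.37) and Arf1 (-0.84 and -0.12). All 6 were negative in both libraries, and only that of Tmed5 in WT lay below the median of all genes. Under TMM scaling Tmed5 stayed negative in both libraries and Arf5 in the library labelled Otud1-/-, and the other values turned positive.

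**Figure D2:**
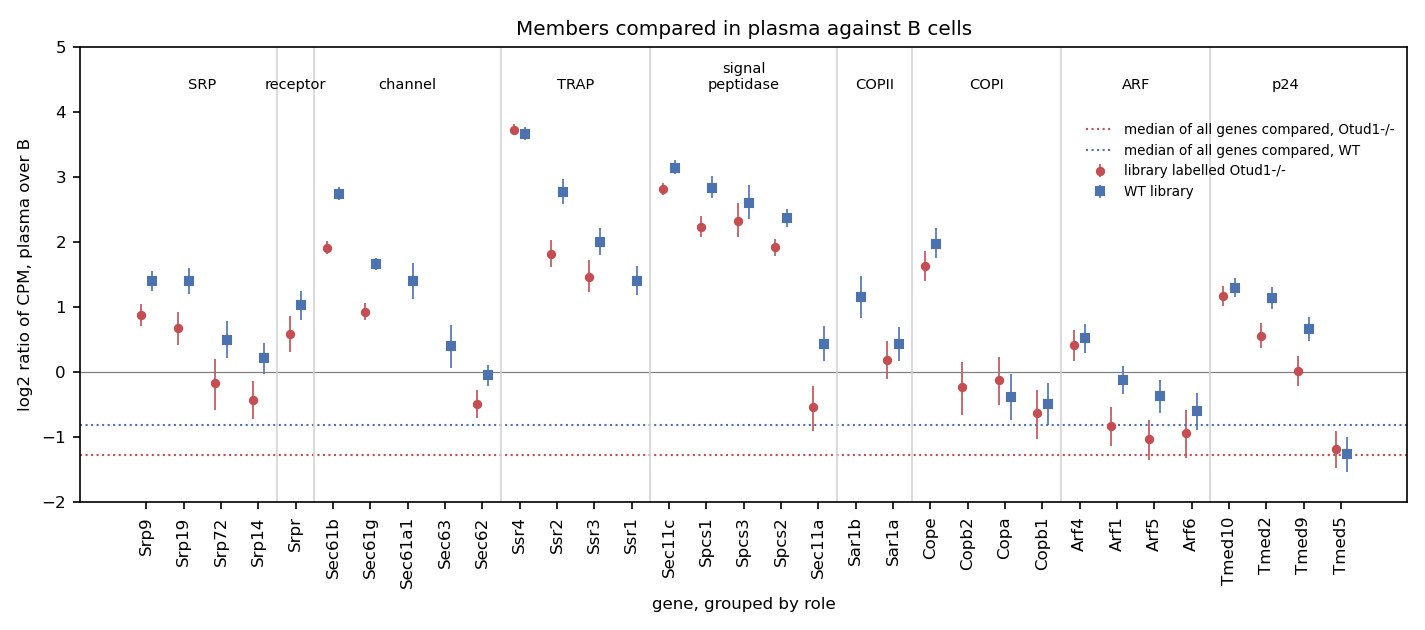
Log2 ratio of CPM, plasma cells over B cells, for the members compared, by role, in the library labelled Otud1-/- and in WT, with exact 95% intervals of counting error and lines at the median of all compared genes. Ssr4 is highest at 3.73 and 3.66, Sec61b of the channel lies among the upper signal peptidase and TRAP members at 1.91 and 2.74, and Tmed5 is lowest at -1.19 and -1.26.

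Paralog choice also differed in low vesicle genes. Sec24d was 24.4% (16.0 to 34.6) of Sec24a to Sec24d UMIs in plasma cells and 2.22% in B cells of the library labelled Otud1-/-, and 27.1% (19.98 to 35.3) and 2.58% in WT. Plasmacytoid dendritic cells had still larger Sec24d shares, 38.7% and 35.8%, whereas neutrophils had 2.14% and 4.76%. These shares rest on few molecules, with 22 and 38 Sec24d UMIs in 20 and 27 plasma cells, or 22.1 and 29.3 CPM against 2.1 and 2.7 CPM in B cells. Copz2, the rarer zeta subunit of COPI, was 28.6% (14.6 to 46.3) of the Copz1 and Copz2 UMIs in plasma cells and 0.481%, 2 of 416 UMIs, in B cells of the library labelled Otud1-/-. In WT it was 9 of 45 UMIs (9.6% to 34.6%) in plasma cells and 0 of 285 UMIs in B cells, which allows up to 1.29%. Arf4 made up 38.1% and 30.6% of ARF UMIs in plasma cells against 19.7% and 18.9% in B cells, and 41.3% and 37.9% in NK cells. Copg2, one of a pair of gamma subunits of COPI, went the other way, at 8.3% and 11.8% of Copg1 and Copg2 UMIs in plasma cells against 25.2% and 29.6% in B cells, from 3 and 6 UMIs in plasma cells. For Sec23a the libraries did not match: it was 42.4% of Sec23a and Sec23b UMIs in plasma cells and 27.1% in B cells of the library labelled Otud1-/-, but 13.8% and 24.2% in WT, from 14 and 8 Sec23a UMIs in plasma cells. Tmed6 needs care, since its 46 and 13 plasma cell UMIs came from 2 and 3 cells.

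The 5 carriers of the XBP1 element had mixed ratios of plasma cells over B cells on the CPM scale. Sec24d was at 3.14 in the library labelled Otud1-/- and 3.22 in WT, Copb1 at -0.64 and -0.49, Copb2 at -0.24 and 0.42, Arf1 at -0.84 and -0.12, and Sec23a, from 14 and 8 UMIs in plasma cells, at 0.39 and -0.73. With the TMM shift of 0.98 and 0.65 added, these directions depend on the scaling: all but that of Sec23a in WT become positive. Of the 10 members at least 2-fold higher in both libraries, 7 had a promoter window, and 0 of these 7 held the element. With 1.27% of promoters of the compared genes holding it, 7 windows are too few to show a lack. The core ACGTG was in 57.1% of the 7 windows, against 28.1% of promoters of the compared genes. It was in 62.5% of the 16 windows of the other members compared in both libraries.

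Beside the members, a list of 70 other genes of the same route was counted, chosen with earlier results in view. In the library labelled Otud1-/- 31 were compared, 17 were higher in plasma cells by the same line and 2 lower, while in WT the numbers were 42, 30 and 1. Over all genes 6.42% and 9.31% were higher and 60.7% and 41.6% lower. ER chaperones, which fold the imported chains, were higher for 8 of 12 and 13 of 14, and subunits of the oligosaccharyl transferase, which attaches sugars, for 6 of 10 and 7 of 11. Subunits of the ER membrane complex, which inserts membrane proteins, were higher for 0 of 2 and 0 of 4, with Emc6 at -1.38 and -0.996 and Emc7 at 0.60 in WT. Xbp1 had log2 ratios of 4.42 in the library labelled Otud1-/- and 4.27 in WT. It is also a marker by which the plasma cell class was named, so its excess there was partly set in advance. The counts of higher genes above include it. The chaperone gene Sdf2l1 had ratios of 3.92 and 4.47, and Lman1, a cargo receptor for ER exit, 3.52 and 3.998. Stt3b, a catalytic subunit of the transferase, was lower, at -1.81 and -1.32.

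In the comparison of the library labelled Otud1-/- with WT within a class, few members passed the line outside neutrophils and plasma cells. The shares of all genes past it were small there too, so these counts mark nothing particular to the members. Genes were counted at 1.5-fold. In B cells, 30 members were compared and 0 passed, against 0.425% of genes on the higher side and 1.89% on the lower. The count was also 0 of 32 in T cells (background 0.841% higher and 3.59% lower), 0 of 19 in NK cells (6.34% and 4.96%) and 0 of 32 in dendritic cells (2.3% and 4.91%). In plasmacytoid dendritic cells 1 of 30 was lower (1.09% of genes higher and 10.4% lower), Copz1, the common zeta subunit of COPI, at -0.64 (-1.30 to -0.04). In monocytes/macrophages 1 of 36 was lower (6.7% higher and 3.58% lower), Sec62, a partner of the channel, with 149.6 CPM in the library labelled Otud1-/- and 224.7 CPM in WT (-0.59, -0.69 to -0.48). Summed neutrophil markers in this class were 8457 CPM in the library labelled Otud1-/- and 2543 CPM in WT, and their part in the result was not tested.

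At the upper end of these 6 classes the members were mixed and below the line. Tmed3, a p24 gene, was at 0.55 in dendritic and 0.49 in plasmacytoid dendritic cells, Arf5 at 0.54 in monocytes/macrophages and 0.44 in dendritic cells, and Sec11c and Ssr2 at 0.54 each in NK cells. Sec11a was highest in B cells and T cells, at 0.40 and 0.39. At the lower end Sec61g was among the 3 lowest members in every one of the 8 classes, and Sec62 was also negative in all 8.

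In plasma cells 8 of 30 members passed the line on the lower side and 0 on the higher in the library labelled Otud1-/-, but 41.3% of all 1080 compared genes were lower as well and 2.5% higher. The median was -0.56 over 19 ER translocation members and -0.37 over 11 vesicle members, beside -0.51 over all genes. Immunoglobulin took 53.8% of plasma cell UMIs in the library labelled Otud1-/- and 35.98% in WT. With immunoglobulin left out of the totals, 2 of 26 members were past the line. The members' median was then -0.0391, beside -0.106 over 895 genes, and the share of all genes past the line was not counted. On the CPM scale, where the median of all genes was -0.51, Ssr4 was the highest member. It had 2784 CPM in the library labelled Otud1-/- and 2145 CPM in WT, a log2 ratio of 0.38 (0.30 to 0.45). Tmed5 at 0.16 and Arf4 at 0.02 came next. Ssr1, the TRAP alpha subunit, was lowest, with 83.5 and 197.1 CPM (-1.24, -1.62 to -0.88), then Sec61g, with 561.1 and 1230 CPM (-1.13, -1.27 to -0.99), and Srp72 at -0.77. TRAP subunits thus lay at both ends, with Ssr2 at -0.75 and Ssr3 at -0.63.

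In neutrophils, the cells the study's title is about, 24 members were compared, 0 were at least 1.5-fold higher in the library labelled Otud1-/- and 6 lower, against 23.1% of genes higher and 23.3% lower. Over 12 ER translocation members the median log2 ratio was -0.41, with 4 lower, and over 12 vesicle members -0.02, with 2 lower, beside 0.04 over all genes. Sec61g was lowest, with 106.7 CPM in the library labelled Otud1-/- and 302.0 CPM in WT (-1.496, -1.70 to -1.31). Ssr1 followed with 34.3 and 74.9 CPM (-1.11, -1.495 to -0.76), and Tmed9, a p24 receptor of early secretion, with 39.0 and 80.4 CPM (-1.03, -1.39 to -0.69). These values were low in absolute terms, the neutrophil being the class poorest in most members. Spcs2 (-0.80) was under 10% of its level in another class and so may be background RNA, and Sec62 (-0.76) and Arf6 (-0.69) completed the 6. The highest members were vesicle genes, Sar1a at 0.44, Arf5 at 0.42, Tmed5 at 0.33, Tmed10 at 0.24, Arf1 at 0.09 and Arf4 at 0.05.

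Neutrophils consisted of 3 clusters that the libraries filled unequally, and the ER translocation share followed the cluster. Cluster 24, led by the granule genes Ngp, Camp and Ltf of immature neutrophils, held 17 and 120 cells and had shares of 0.308% and 0.284%. Cluster 9, led by G0s2, Mmp9 and Retnlg, held 93 and 613 cells, with 0.163% and 0.213%. Cluster 5, led by Stfa2l1, Cstdc4 and Cxcr2, held 768 and 174 cells, with 0.115% and 0.121%. The vesicle share was nearly level over clusters, between 0.202% and 0.238%.

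Within cluster 5, 14 members were compared and 1 was at least 1.5-fold lower, against 5.78% of genes lower and 8.4% higher. The median was 0.35 over 7 ER translocation members and 0.21 over 7 vesicle members, beside 0.18 over all genes. The 1 was Sec61g, with 93.8 CPM in the library labelled Otud1-/- and 178.2 CPM in WT (-0.92, -1.26 to -0.58). In cluster 9, 3 of 10 members were lower, Sec61g (-1.55), Sec61b (-0.75) and Arf6 (-0.69), against 35.3% of genes lower and 4.13% higher. The direction of the class median for ER translocation genes, -0.41, was thus not that of cluster 5. Ribosomal protein genes moved with it, at 5.20% of neutrophil UMIs in the library labelled Otud1-/- and 15.2% in WT, as did summed B cell markers, at 296 and 1356 CPM, and T cell markers, at 51.3 and 461 CPM, and their part in the result was not tested. Other scalings moved the median of all neutrophil genes by 0.58 (TMM) and 0.67 (median of ratios), and the ER translocation median to 0.17 and 0.26. Sec61g alone of the ER translocation members then stayed past the line, at -0.92 and -0.82.

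**Figure D3:**
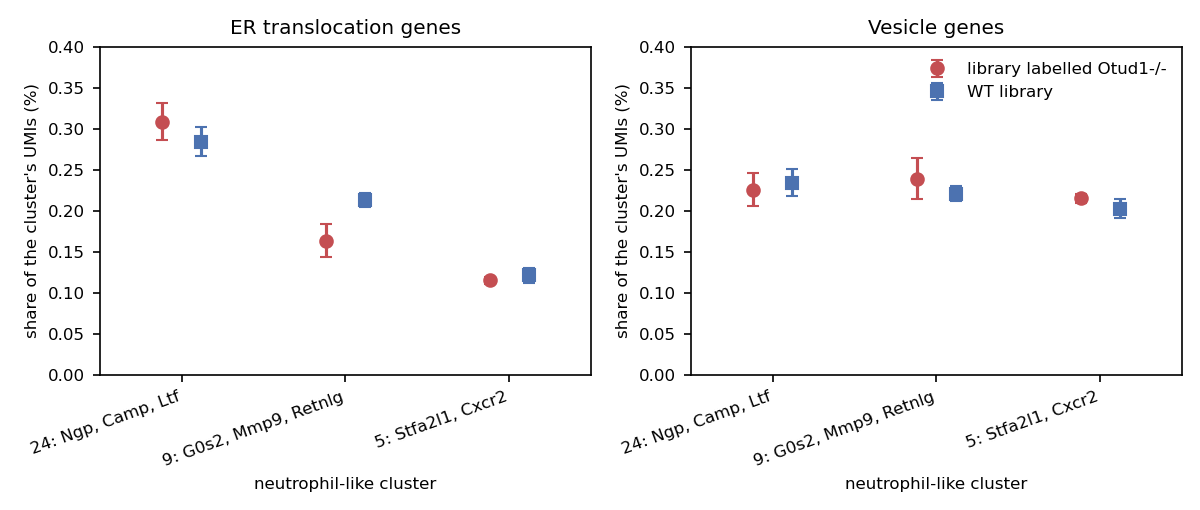
Percent of UMIs from ER translocation and vesicle members in the 3 neutrophil clusters of the library labelled Otud1-/- and of WT, with exact 95% intervals of counting error. The ER translocation share is highest in cluster 24 (0.308% and 0.284%) and lowest in cluster 5 (0.115% and 0.121%), and the vesicle share lies between 0.202% and 0.238%.

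Sec61g, the marker gene of the set, was read in every class. It encodes the small gamma subunit, which clamps the pore of the Sec61 channel from the side, on chromosome 11 from 16500530 to 16508484 (minus strand, mm10). In the library labelled Otud1-/- it had 863.8 CPM in plasmacytoid dendritic cells, 561.1 in plasma cells, 434.6 in dendritic cells, 413.0 in monocytes/macrophages, 377.0 in NK cells, 325.2 in T cells, 295.2 in B cells and 106.7 in neutrophils. In WT the same classes had 1077, 1230, 561.4, 496.4, 441.8, 461.6, 390.7 and 302.0 CPM. It was thus lower in the library labelled Otud1-/- in all 8 classes, with a log2 ratio between -1.496 in neutrophils and -0.23 in NK cells and an interval below 0 in each. Under TMM and median of ratios it was lower in all 8 classes, with an interval below 0 in 7. Of the 683 genes compared in all 8 classes, 16.3% were lower in all on the CPM scale, 6.30% under TMM and 5.42% under median of ratios. Sec62 was the other member lower in all 8, on the CPM scale and under TMM. On the CPM scale 6.88% of the 683 genes had an interval below 0 in every class and 0.146% above 0. Of the 16 members among them Sec61g was the 1 below 0, a share near that of all genes. Between 4.47% (T cells) and 27.8% (plasmacytoid dendritic cells) of the compared genes had a still lower ratio, so other genes went as far.

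Sec61b, its partner in the same complex, did not follow. Its log2 ratio was 0.40 in NK cells, 0.39 in dendritic cells, 0.22 in B cells, 0.18 in monocytes/macrophages, 0.10 in plasmacytoid dendritic cells, 0.04 in T cells, -0.22 in neutrophils and -0.61 in plasma cells. The interval lay above 0 in 4 classes and below 0 in 2. Under TMM and median of ratios it lay above 0 in 7 classes and below 0 in 1, plasma cells. The direction was thus mixed on each scale, but the number of classes on each side depends on the scaling. A share among the UMIs of Sec61a1, Sec61b and Sec61g does not depend on the total of the class. Sec61g held 29.1% of them in neutrophils of the library labelled Otud1-/- and 49.6% in WT, 48.4% and 58.6% in B cells, 34.004% and 42.7% in plasma cells, 41.9% and 51.3% in T cells, 42.2% and 51.7% in NK cells, 35.4% and 47.5% in dendritic cells, 43.4% and 51.1% in plasmacytoid dendritic cells and 44.6% and 51.4% in monocytes/macrophages. In every class the share was the smaller in the library labelled Otud1-/-. The difference between the log2 ratios of Sec61g and Sec61b ran from -1.28 to -0.42 over the classes.

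Because sex and genotype differed together, Sec61g was also read by sex-linked transcripts. In neutrophils, cells with a Y-linked and no Xist UMI had 110.1 CPM in the library labelled Otud1-/- and 317.2 CPM in WT, while WT cells with Xist and no Y-linked UMI had 297.6 CPM. In plasma cells the 3 values were 601.6, 1380 and 1290 CPM, and in B cells 298.5, 375.2 and 400.8 CPM. In plasmacytoid dendritic cells, at 819.6, 846.6 and 1236 CPM, the cells with Y-linked transcripts of both libraries lay close together, and in NK cells, at 381.6, 363.4 and 435.2 CPM, the order of those was turned round. Among cells with Y-linked transcripts Sec61g was thus lower in 7 of 8 classes, with an interval below 0 in 6.

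**Figure D4:**
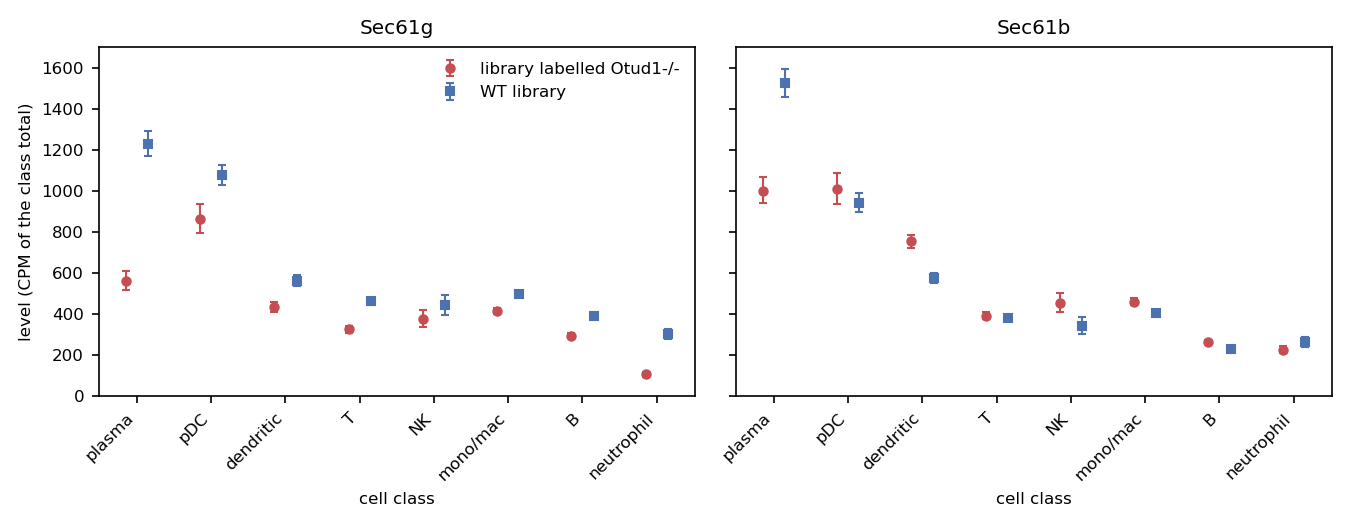
CPM of Sec61g and Sec61b in the 8 classes, for the library labelled Otud1-/- and for WT, with exact 95% intervals of counting error. Sec61g is lower in the library labelled Otud1-/- in all 8 classes, from 106.7 against 302.0 CPM in neutrophils to 377.0 against 441.8 CPM in NK cells. Sec61b goes in both directions, and under TMM or median of ratios its interval is above 0 in 7 of 8 classes and below 0 in 1.

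Outside the 8 classes Sec61g was also the main channel subunit of WT erythroid cells, with 102 UMIs in 66 cells, 77.3% of the 3 genes' UMIs. The lowest member of all was Tmed11, a p24 gene, with 0 UMIs in either library, which allows up to 0.0796 CPM in the library labelled Otud1-/- and 0.0785 CPM in WT.

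**Figure D5:**
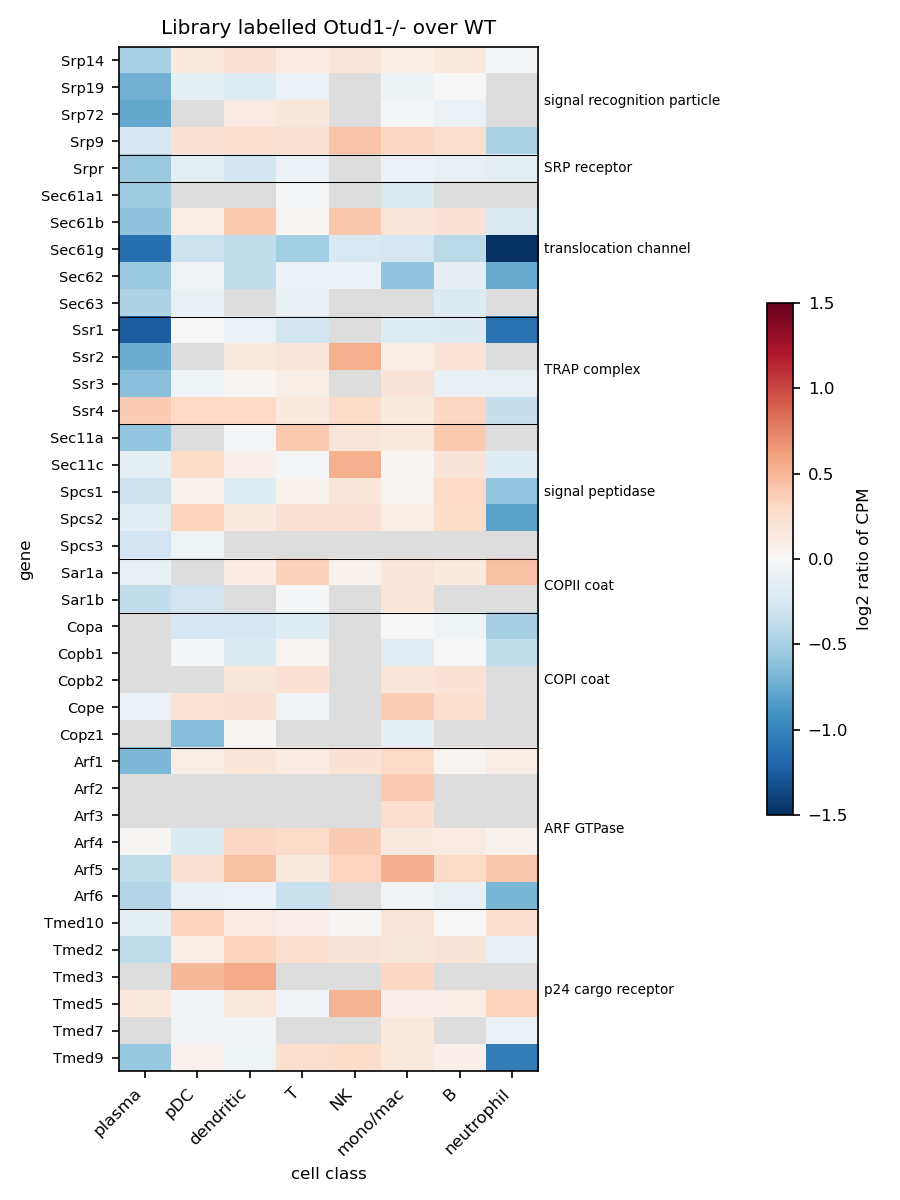
Log2 ratio of CPM, library labelled Otud1-/- over WT, for each member compared (rows, by role) in each of the 8 classes (columns); blank cells were not compared. Sec61g and Sec62 are negative in every column, Sec61g down to -1.496 in neutrophils, and Ssr1 reaches -1.24 in plasma cells, where most members are negative.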

How the data were processed

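The authors deposited unnormalised UMI counts for every gene and barcode, 1 matrix per library. The submitters' processing notes name Seurat 3.2.3, Cell Ranger 5.0.0 and the mm10 build, and the matrix header names Cell Ranger 6.0.1. Members and lists were chosen with earlier results of these data known.

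A cell was kept when it had 200 or more genes and no more than 15% mitochondrial UMIs (over that were 14.2% of barcodes of the library labelled Otud1-/- and 3.58% of WT). A Scrublet-type caller marked 0 and 0 doublets, so the highest scores were removed at a rate set by the number of barcodes (6.49% and 10.6%). Clustering (Python 3.11.15, scanpy 1.11.5, Leiden by leidenalg 0.10.2, resolution 1) used 2000 variable genes without the members, Otud1, sex-linked, antigen receptor, ribosomal and mitochondrial genes, 30 components and 20 neighbours. Clusters were named for the class best represented in their top 50 genes, with 3 markers or more, by a rule set after seeing the data; 375 and 1432 cells stayed unnamed.

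UMIs were summed per class and library and scaled to CPM. Ratios carry exact conditional binomial, levels exact Poisson and shares Clopper-Pearson 95% intervals (scipy 1.17.1); UMIs limit but do not remove amplification error. A value under 10% of the gene's level in another class was marked as possible background RNA. Named were Sec61g, the 12 highest and 6 lowest members between plasma and B cells in WT, the 6 highest and 6 lowest in neutrophils, the 3 highest and 3 lowest in other classes, and paralogs; Sec24d, Copz2, Tmed6 and Tmed11 among others were added after their values were seen. Reads shared with near-identical gene copies were not assessed. Scalings by TMM (edgeR 4.0.16) and median of ratios (DESeq2 1.42.0), other filters, totals, doublet handling and clusterings were tried. The ratio calculation was tested on simulated counts. Exons came from GENCODE vM21 and sequences from RefSeq.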

Additional observations from a re-analysis of the deposited data

Results flagged for a closer look

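For 6 members the library labelled Otud1-/- lay at least 1.5-fold below WT in one class while the interval of another class lay wholly above 0. The difference between the classes was not tested in any of the 6, and each class has 1 library per genotype. In plasma cells, where the median of all genes was -0.51, the log2 ratio was -0.67 for Arf1, against 0.29 (0.20 to 0.38) in monocytes/macrophages. Sec61b was at -0.61 (-0.72 to -0.50) in plasma cells, against 0.40 (0.18 to 0.63) in NK cells. Ssr2 was at -0.75 (-0.97 to -0.53) in plasma cells, against 0.54 (0.09 to 0.998) in NK cells. Ssr3 was at -0.63 (-0.90 to -0.36) in plasma cells, against 0.19 (0.07 to 0.31) in monocytes/macrophages. In neutrophils Spcs2 was at -0.80 (-1.09 to -0.51), against 0.33 (0.14 to 0.52) in plasmacytoid dendritic cells. Tmed9 was at -1.03 (-1.39 to -0.69) in neutrophils, against 0.24 (0.11 to 0.37) in T cells. TMM scaling adds 0.35 to every ratio in plasma cells and 0.58 in neutrophils, which takes all 6 inside the 1.5-fold line, and Spcs2 in neutrophils may be background RNA.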

How the results depend on the processing

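No paired analysis was possible because there is 1 library per genotype, so no replicate can be paired or left out. Of 3387 values of single members under other settings, 2913 stayed within the interval of the value reported and 474 lay outside it. Of those whose reported value was past the line, 0 changed sign, and sign changes of smaller values were not counted. The minimum of 20 CPM and that of 100 CPM only change which genes enter, so their 294 and 202 values could not move. TMM took 122 values outside the interval and left 172 within, and median of ratios took out 126 and left 168. The alternatives chosen after seeing the data were totals without immunoglobulin, ribosomal and mitochondrial genes, the first B cell cluster alone, and classes without the low-UMI clusters 7 and 9. The 8 ER translocation members higher in plasma cells of the library labelled Otud1-/- numbered between 8 and 12 under the other settings, with 12 of 16 compared under TMM and median of ratios and 12 of 14 under both reduced totals. Plasma over B cells, library labelled Otud1-/-: the ER translocation median (1.19) was 2.18 with TMM, 2.23 with median of ratios, 2.74 without immunoglobulin, 0.87 at a minimum of 20 CPM, 1.64 at 100 CPM, 1.57 in cells with Y-linked UMIs and 2.55 without immunoglobulin, ribosomal and mitochondrial totals; in the same settings with a changed value, the vesicle median (-0.13) was 0.85, 0.90, 1.51 and 1.0002 (TMM, median of ratios, and the reduced totals in that order), and the 2 higher vesicle members were 5, 6, 6 and 5, and 4 at 20 CPM. Plasma over B cells, WT: the ER translocation median (1.40) was 2.05, 2.11, 2.03 and 1.94 under TMM, median of ratios and the 2 reduced totals, 1.997 at 100 CPM and 2.54 in cells with Y-linked UMIs, where 5 members of 7 compared were higher in place of 14; the vesicle median (0.43) was 1.08, 1.14, 1.14, 0.96 and, in cells with Y-linked UMIs, -0.39; the 4 higher vesicle members were 7 under TMM, median of ratios and without immunoglobulin, and 0 in cells with Y-linked UMIs. Otud1-/- over WT, neutrophils: the 4 lower ER translocation members were 1 with TMM and median of ratios, 8 at 20 CPM, where more genes enter, 2 at 100 CPM and 2 in cells with Y-linked UMIs, where fewer enter, 7 with the totals reduced by all 3 groups and 2 without clusters 7 and 9, and the median (-0.41) was 0.17, 0.26, -0.84 (Y-linked), -0.67 (reduced totals) and -0.14 (without the clusters). The 2 lower vesicle members were 0 with TMM, median of ratios, at 100 CPM, in cells with Y-linked UMIs and without the clusters, 5 at 20 CPM, 1 with doublets kept and 4 with reduced totals, and the median (-0.02) was 0.56, 0.66, -0.29 (reduced totals) and 0.29 (without the clusters). In plasma cells the 8 lower members were 2 under TMM, median of ratios, both reduced totals and in cells with Y-linked UMIs, and the median (-0.45) was -0.10, -0.0732, -0.0391, -0.0594 and 0.0188. The scalings shift all genes alike. Reduced totals also change which genes are compared, leaving 14 ER translocation and 7 vesicle members without immunoglobulin in the library labelled Otud1-/-. For the other settings the cause was not tested. The share of all genes past the line was not counted under any of these settings, so the counts of members here have no background beside them. TMM moved the median of all genes by 0.98 and 0.65 between plasma and B cells. Most COPII genes fell under the level of 50 CPM, which more depth would not change. Between plasma and B cells of WT, however, Sec13, Sec24a and Sec31a failed only the minimum of UMIs.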
